A study of Mus musculus with 46 samples.

Results

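Mouse bone marrow-derived macrophages exposed to 27-hydroxycholesterol (27HC) were compared directly with the same kind of cells exposed to GW3965, gene by gene. The comparison takes every library whose label gives 27HC alone (n = 5) or GW3965 alone (n = 5), which is 10 of the 46 libraries of the study, and it covers all genes. 27HC is an oxysterol, a cholesterol molecule with an added hydroxyl group, that binds the liver X receptors (LXR) and the estrogen receptors, and GW3965 is a synthetic agonist of LXR. Vehicle-treated macrophages (n = 6) are the baseline for both. Macrophages given only the LXR antagonist GSK2033 (n = 5) or only estradiol (E2, n = 5) share no library with the comparison and are set beside it. The labels used here give neither doses nor exposure times, nor the strain, sex or age of the mice, so a difference between the compounds and a difference between their doses cannot be told apart. The labels do not say whether replicates were separate mice or separate dishes. Every p-value therefore measures only the spread between libraries within groups, estimated from all 46 libraries of the study, and that spread may be technical.

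LXR are nuclear receptors that pair with retinoid X receptors and turn on genes for cholesterol export (Abca1, Abcg1), for a ubiquitin ligase (Mylip) and for fatty acid synthesis (Srebf1 and its target enzymes). Cholesterol synthesis and uptake are under a separate control: the precursor of SREBP2, made from Srebf2, is held in the endoplasmic reticulum by INSIG proteins when sterols are plentiful, and oxysterols such as 27HC bind INSIG. In macrophages LXR agonists are also known for lowering inflammatory genes.

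Estimated counts per library ran from 21218216 to 23755687 with 27HC and from 19354093 to 28451168 with GW3965. Levels below are in CPM, counts scaled to a common library size with TMM factors, which are not corrected for gene length, so levels are compared between groups and not between genes. Where 3 values stand for Vehicle, they are the lowest, the median and the highest of its 6 libraries. Of 15 macrophage identity genes, all were tested, 10 were higher and 3, among them Mertk and Cebpa, lower with 27HC than with GW3965. Csf1r, the receptor for macrophage growth factor, and Spi1, a transcription factor that macrophages need, differed by -0.00 and -0.02 on the log2 scale, and neither passed the test. The summed level of that list was 16500 to 17900 CPM with 27HC, 12500 to 13100 with GW3965 and 22500 to 24500 with Vehicle. Summed stromal markers, among them collagen genes, were 4290 to 4770, 4800 to 5460 and 5770 to 6720 CPM in the same order. Such sums mostly follow the genes of highest level. Of 10 stromal markers tested, 2 were higher and 2 lower with 27HC than with GW3965 (12.8% and 12.5% of all genes), with a median of 0.005. Mitochondrially encoded genes took 1.8 to 2.05%, 2.03 to 2.28% and 1.43 to 1.68% of the counts with 27HC, GW3965 and Vehicle. The neutrophil granule genes Mpo and Elane and the neutrophil marker Ly6g had at most 3, 2 and 1 counts in any of these libraries. Summed osteoclast markers were 294 to 312, 216 to 234 and 303 to 342 CPM and summed mast cell and basophil markers 7.68 to 9.82, 6.03 to 7.45 and 9.82 to 11.5 CPM with 27HC, GW3965 and Vehicle, with the markers Calcr and Oscar, and Cpa3 and Ms4a2, near 0. Of 7 osteoclast markers tested, 3 were higher and 1 lower with 27HC than with GW3965, with a median of 0.093. Of 3 mast cell and basophil markers tested, 1 was higher and the others did not pass. The part of these differences in the results below was not tested, and in bulk RNA fewer cells of a type and less RNA per cell cannot be told apart.

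Of 13838 genes tested, 1765 (12.8%) were higher and 1735 (12.5%) lower with 27HC than with GW3965 (edgeR quasi-likelihood test, Benjamini-Hochberg adjusted p under 0.05). These shares are the background for each count of list members called between the compounds below. With total counts in place of TMM as the scaling, 60.9% of the called genes were higher with 27HC, against 50.4% as reported. Most of these differences were small: 1922 of the called genes differed by less than 0.32 on the log2 scale, and the median size was 0.287 on the log2 scale. At least 2-fold differences were found for 197 genes higher (1.42%) and 103 lower (0.744%). In 2452 genes (17.7%) the 2 groups of libraries did not overlap. For 7152 genes (51.7%) the 95% interval of the difference lay within 0.32 on the log2 scale either way.

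**Figure D1:**
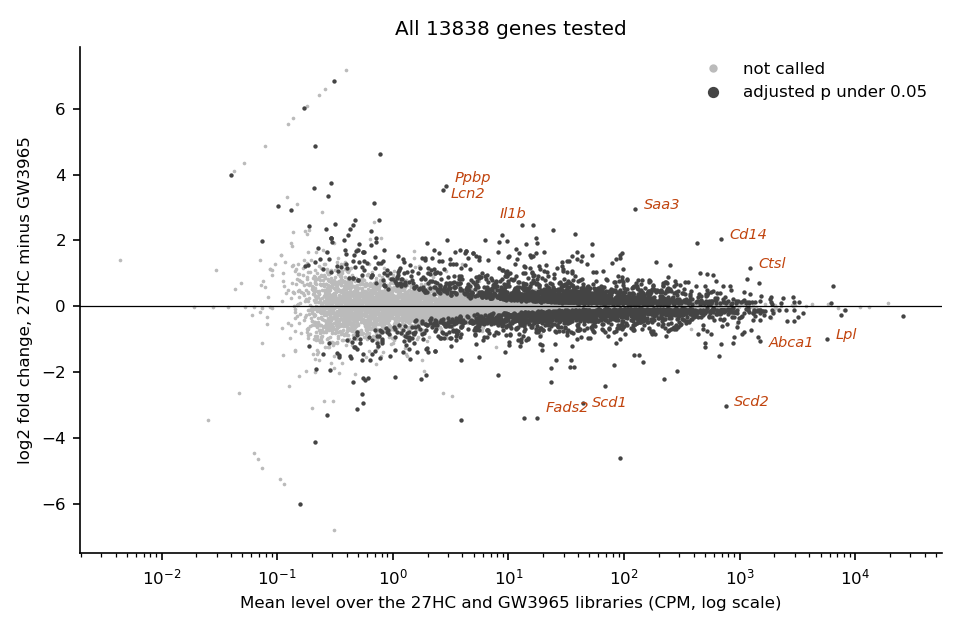
Every tested gene, with the mean level of the 10 libraries on the x axis (CPM, log scale) and the log2 difference of 27HC minus GW3965 on the y axis. Dark points are genes that passed the test, 1765 above and 1735 below 0, and the labelled genes include Fads2 at -3.39 and Ppbp at 3.66.

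Against Vehicle, 27HC raised 2812 genes (20.3%) and lowered 2764 (20%), and GW3965 raised 3201 (23.1%) and lowered 2922 (21.1%). Both of these comparisons use the same 6 Vehicle libraries, and their shares are the background for list counts against Vehicle below. The 197 genes at least 2-fold higher with 27HC than with GW3965 had a median of -0.304 against Vehicle with 27HC and of -1.756 with GW3965. The 103 genes at least 2-fold lower had medians of -0.623 and 0.875. These medians share libraries with the comparison that chose the genes and are given as a description.

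The genes of the LXR and their partners did not pass the test, and that of estrogen receptor alpha was higher with 27HC. Nr1h3, which encodes LXR alpha, stood at 42.8 to 49.8 CPM with 27HC and 39.6 to 51.1 with GW3965, a difference of 0.12 ± 0.0648 (log2, SE; adjusted p = 0.196). GW3965 replicate 5 was the highest of its group, and without it the difference was 0.20 (adjusted p = 0.0153). Both compounds lowered it from a Vehicle median of 71.9 CPM. Nr1h2 (LXR beta), Rxra and Rxrb differed by -0.04, -0.03 and -0.04, and none passed the test. Esr1, the gene of estrogen receptor alpha, was low in every library. It stood at 3.61, 3.74, 4.17, 3.29 and 3.89 CPM with 27HC and 2.64, 2.54, 2.41, 2.64 and 2.4 with GW3965, without overlap, and was 1.48-fold higher with 27HC (log2 0.56 ± 0.119, adjusted p = 0.000218). Both compounds lowered Esr1 from a Vehicle median of 6.21 CPM, and Esr2 had at most 7 counts in any library and was not tested.

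Of 7 tested genes that sense cholesterol and control its synthesis, 3 were lower with 27HC than with GW3965, with a median of -0.11. Insig1, the sterol-regulated anchor of SREBP, was 21.1, 21.7, 22.2, 22.1 and 20.5 CPM with 27HC, 118, 113, 116, 114 and 112 with GW3965, and 66.8, 70.8 and 74.9 (lowest, median, highest) with Vehicle. The compounds moved it to opposite sides of Vehicle, by -1.71 and 0.70, and the difference between them was -2.41 ± 0.0371 (adjusted p = 9.29e-41). Srebf2 was 58.3 to 69.4 CPM with 27HC and 172 to 186 with GW3965, 2.8-fold apart, while GW3965 did not differ detectably from Vehicle (log2 -0.02, adjusted p = 0.655). Scap, Insig2, Mbtps1 and Mbtps2, the escort, a second anchor and the proteases of the same system, differed by 0.00, 0.01, 0.02 and -0.11 and did not pass the test.

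Most enzyme genes of cholesterol synthesis were lower with 27HC. Of 9 genes from acetyl-CoA to farnesyl and geranylgeranyl diphosphate, 8 were lower with 27HC than with GW3965 (median -0.924, against -0.004 over all genes), and only the ninth, Ggps1, did not pass. Of 13 genes from squalene to cholesterol, 10 were lower (median -0.913), and Lbr, Tm7sf2 and Ebp did not pass. Against Vehicle, 27HC lowered 8 of the 9 and 12 of the 13, and GW3965 raised 3 and lowered 3 of the first list and raised 1 and lowered 5 of the second. Idi1, which isomerises isopentenyl diphosphate, differed by -1.88, Fdps, the farnesyl diphosphate synthase, by -1.83, and Sqle, the squalene epoxidase, by -1.64. Msmo1 and Sc5d, which act on sterol intermediates, differed by -0.91 and -1.15. Mvd, the decarboxylase of the mevalonate arm, was 7.02 to 8.34 CPM with 27HC, 16 to 19.3 with GW3965 and 15 to 19.1 with Vehicle. Hmgcs1, the synthase at the head of the pathway, is an example of a gene that both compounds lowered: it was 26.2, 30.9, 29.7, 29.8 and 29.5 CPM with 27HC, 53.7, 56.9, 58.7, 55 and 53 with GW3965, and 72.4 to 78.4 with Vehicle. The difference between the compounds was -0.92 ± 0.0404 (adjusted p = 2.57e-23), and against Vehicle it was -1.36 with 27HC and -0.44 with GW3965.

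**Figure D2:**
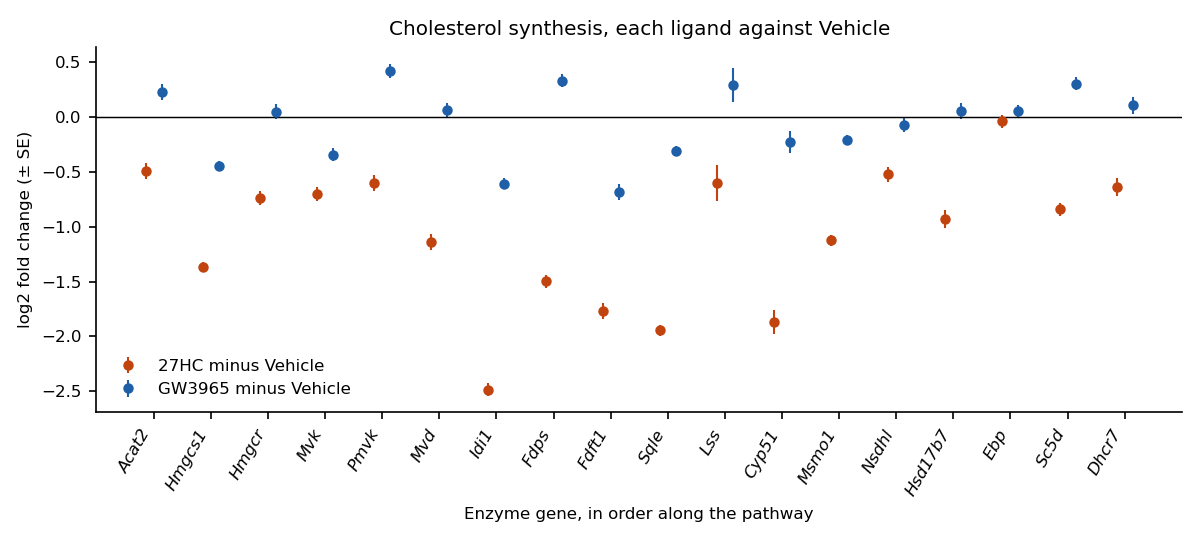
Log2 difference from Vehicle (y axis, bars are SE) of enzyme genes of cholesterol synthesis in pathway order (x axis), with 27HC and GW3965 as separate points. Hmgcs1 lies at -1.36 with 27HC and -0.44 with GW3965, and Idi1 at -2.49 and -0.61.

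The promoter of Hmgcs1 is shown because it carries both motifs searched for in sterol genes. It is given over 240 bases before the RefSeq start (GRCm38.p6, chr13:119690111-119690350, plus strand). Capitals mark the sterol regulatory element TCACNCCAC, which begins 137 bases before the start, and the CCAAT box GCCAAT, found here on the opposite strand at 176 and 45 bases.
Hmgcs1: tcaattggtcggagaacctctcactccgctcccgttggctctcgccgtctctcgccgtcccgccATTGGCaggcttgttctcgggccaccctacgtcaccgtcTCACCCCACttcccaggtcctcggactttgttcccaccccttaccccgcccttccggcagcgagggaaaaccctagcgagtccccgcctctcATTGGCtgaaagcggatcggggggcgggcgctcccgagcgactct
The search covered both strands of the 250 bases before each start in the RefSeq table. There TCACNCCAC occurred in 1.05% of all 32851 promoters and in 1.15% of the tested genes with an entry. A gene counts where any of its promoters matched. Of the 7 early pathway genes that had an entry, 1 matched. TCACNCCAC occurred in 0 of 10 genes from squalene to cholesterol, 0 of 7 for sterol sensing and 0 of 12 for sterol handling. GCCAAT occurred in 13.46% of all promoters, in 20.95% of the tested genes with an entry, in 6 of those 7 early genes, and in 6, 4 and 5 genes of the other lists in the same order. GCCAAT was not particular to sterol genes. With an entry, 14 of 20 chaperone and unfolded protein response genes and 14 of 24 genes of G2 and mitosis had it, and 0 of 11 inflammatory cytokine genes. A match is a description, not a site or a cause. This promoter and those below were chosen after the matches were seen.

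Genes that handle sterols outside synthesis were mixed. Of 19 tested, 10 were lower and 4 (Nceh1, Npc2, Ch25h and Osbpl3) higher with 27HC, with a median of -0.07, and the call of Osbpl3 was lost without GW3965 replicate 1 (adjusted p = 0.0683). Stard4, which carries cholesterol between membranes, was 7.17 to 9.3 CPM with 27HC, 38.1 to 40.2 with GW3965 and 35.8 to 40.7 with Vehicle, so that GW3965 overlapped Vehicle and 27HC stood 4.9-fold below GW3965. Scarb1, the HDL receptor, and Lipa, the lysosomal acid lipase, differed by -1.12 and -0.46. For both of these GW3965 lay above Vehicle, by 0.95 and 0.83. Ch25h, which makes another oxysterol, was higher with 27HC by 0.94.

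Most LXR targets of cholesterol efflux and uptake rose with both compounds, and most stood higher with GW3965. Of 10 tested genes for cholesterol efflux and uptake, 8 were lower with 27HC than with GW3965 (median -0.68), while Apoc1 and Apoc2 did not pass. Against Vehicle, 27HC raised 8 and GW3965 raised 9 of the 10. Abca1, the exporter that loads apolipoprotein A-I, lies at chr4:53030787-53159895 on the minus strand. It was 979, 1046, 904, 955 and 1057 CPM with 27HC against 1870, 1981, 1905, 2284 and 2144 with GW3965, and 345, 397 and 429 with Vehicle. The 3 groups did not overlap, and Abca1 was 2.06-fold lower with 27HC than with GW3965 (log2 -1.04 ± 0.0654, adjusted p = 2.45e-17). Abcg1, which exports cholesterol to HDL, was 365, 338, 331, 352 and 327 CPM with 27HC, 928, 968, 945, 1015 and 1027 with GW3965, and 35.1, 38.4 and 52.8 with Vehicle. It rose by 3.06 with 27HC and by 4.57 with GW3965 on the log2 scale, a difference of -1.51 ± 0.066 (adjusted p = 7.31e-23). Mylip, a ubiquitin ligase, stood at 122 to 131, 217 to 227 and 32.6 to 37.2 CPM with 27HC, GW3965 and Vehicle. Pltp, the phospholipid transfer protein, and Lpl, lipoprotein lipase, were lower with 27HC (log2 -1.11 and -1.0), as was Apoe (-0.28).

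The gap between the compounds was wider in the lipogenic arm. Of 7 lipogenic and phospholipid targets, 6 were lower with 27HC than with GW3965 (median -1.679), and each compound raised 6 of them from Vehicle. Srebf1, whose product SREBP1c drives fatty acid synthesis, was 78.8, 79.6, 72.7, 83.7 and 82.3 CPM with 27HC, 360, 357, 355, 368 and 375 with GW3965, and 65.8, 70 and 74.6 with Vehicle. With 27HC it overlapped the Vehicle libraries at its lowest value and was 0.19 above them (adjusted p = 0.00159), and it was 4.57-fold under GW3965 (log2 -2.19 ± 0.0503, adjusted p = 7.03e-34). Scd2, a stearoyl-CoA desaturase, was 156, 174, 170, 162 and 176 CPM with 27HC against 1316, 1323, 1367, 1385 and 1378 with GW3965 and a Vehicle median of 54.3, an 8.09-fold gap. Its neighbour Scd1 stood at 8.95 to 11.4, 72.7 to 82.6 and 6.18 to 9.31 CPM with 27HC, GW3965 and Vehicle. Lpcat3, which puts polyunsaturated chains into phospholipids, differed by -1.48, and Fasn, the fatty acid synthase, by -1.68.

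Fatty acid synthesis and elongation, a list that shares Scd1, Scd2 and other genes with the last, had 18 of 22 lower with 27HC (median -0.631). GW3965 raised 18 of the 22 from Vehicle, whereas 27HC raised 8 and lowered 8. Fads2, the desaturase that starts the path to long polyunsaturated chains, went to opposite sides: it was 2.52, 2.9, 2.95, 3.75 and 3.38 CPM with 27HC, 33.2, 31.9, 30.9, 32 and 34.5 with GW3965, and 4.86, 6.01 and 8.31 with Vehicle. The compounds were 10.5-fold apart there (log2 -3.39 ± 0.108, adjusted p = 1.74e-28), with 27HC at -1.0 and GW3965 at 2.38 from Vehicle. Fads1 behaved likewise with smaller changes, -0.42 and 0.25.

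Of 16 other LXR targets, 10 were lower and 1, the cyclooxygenase gene Ptgs1 (0.55), higher with 27HC than with GW3965, with a median of -0.22. Cd5l, a secreted macrophage survival factor, was 112 to 126 CPM with 27HC, 444 to 475 with GW3965 and 94 to 124 with Vehicle, so that 27HC overlapped Vehicle and lay 3.87-fold below GW3965. Eepd1 was lower (log2 -1.77), although 27HC itself raised it by 1.41 from Vehicle. Il18bp, which binds interleukin 18, was lowered by 27HC (-0.36) and raised by GW3965 (0.84).

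**Figure D3:**
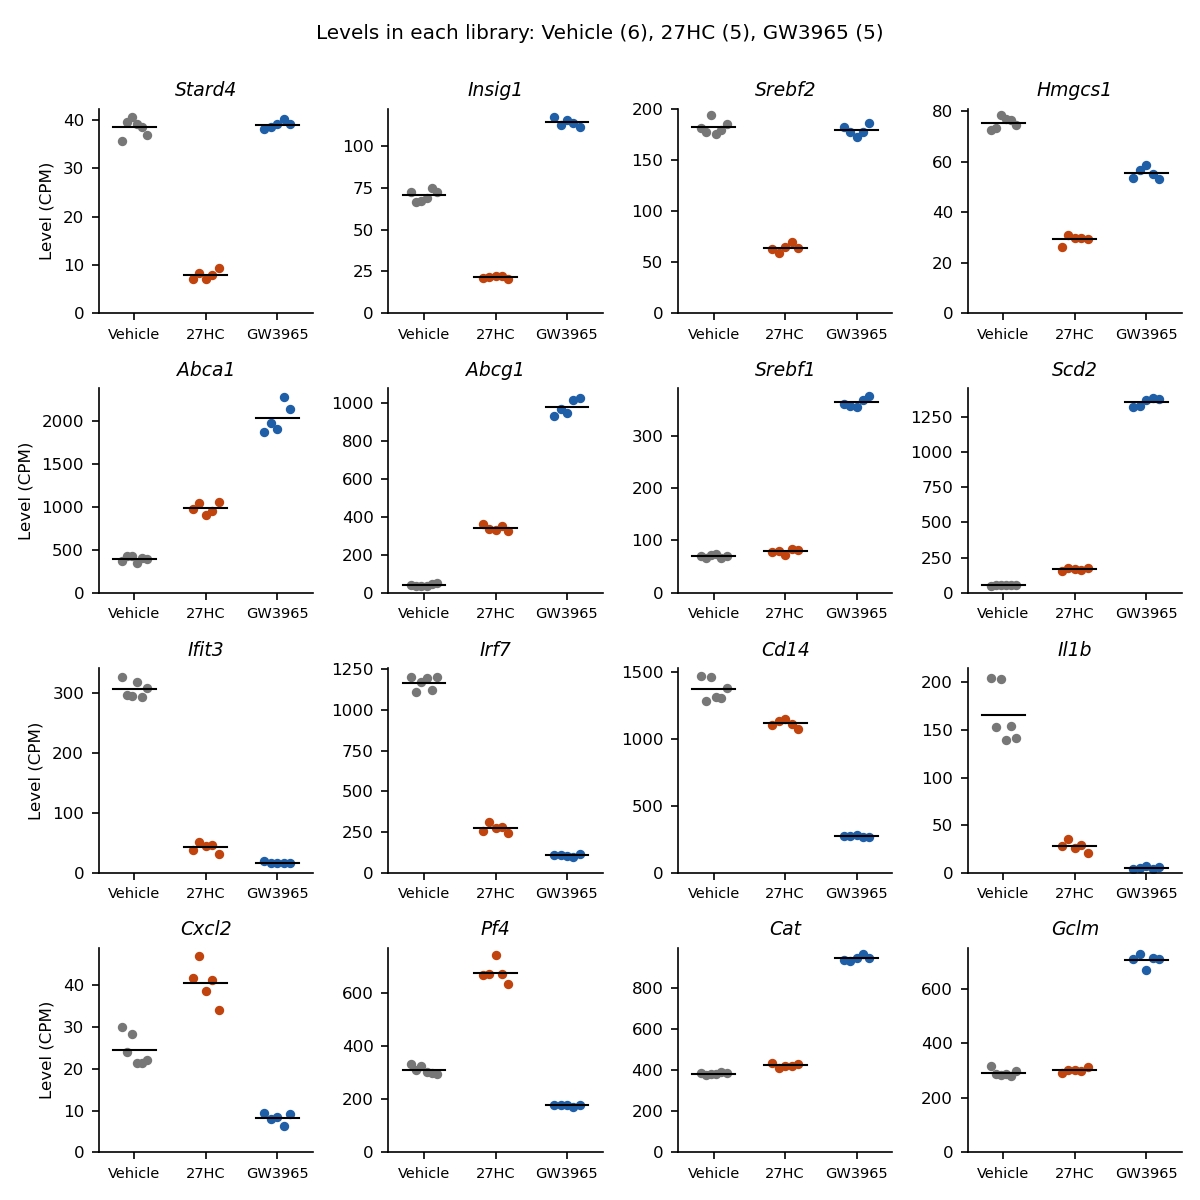
Level of each gene shown in every library (y axis, CPM, linear from 0), grouped by Vehicle (6 points), 27HC (5) and GW3965 (5), with the group mean as a bar. Abca1 stood at 904 to 1057 CPM with 27HC and 1870 to 2284 with GW3965, and Insig1 at 20.5 to 22.2 and 112 to 118.

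Interferon-stimulated genes were below Vehicle with both compounds, and most were less far below it with 27HC. Of 56 tested effector genes of the interferon response, 49 were higher with 27HC than with GW3965 (median 0.662), and the other 7, Oas2, Mx2, Tor3a, Pml, Isg20, Trim25 and Gbp4, did not pass. 27HC lowered 55 of the 56 from Vehicle and GW3965 all 56, with medians of -1.342 and -2.013. Ifitm3, which blocks viral entry, was 349, 366, 364, 368 and 320 CPM with 27HC, 154, 144, 143, 136 and 155 with GW3965, and 744, 795 and 837 with Vehicle. It lay below Vehicle in every library of both groups and 2.41-fold higher with 27HC than with GW3965 (log2 1.27 ± 0.0405, adjusted p = 1.85e-28). Ifitm2, Oas3, which activates RNase L, and Rtp4 were higher with 27HC by 0.77, 0.74 and 0.83.

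The regulator Irf7 showed the same order. Its level was 256, 311, 275, 280 and 245 CPM with 27HC, 111, 107, 105, 98.5 and 114 with GW3965, and 1110, 1185 and 1203 with Vehicle, and the groups did not overlap. It was 2.55-fold higher with 27HC (log2 1.35 ± 0.0462, adjusted p = 3.25e-27). Of 17 interferon transcription factors and receptors 9 were higher and 3 (Irf8, Ifngr1 and Irf5) lower, with a median of 0.124. Irf8, which guides monocyte development, was lower with 27HC (log2 -0.42). Of 17 cytosolic nucleic acid sensors 14 were higher and 1, the adaptor Mavs (-0.22), lower, with a median of 0.343. Ifi205, Ifi211 and Ifi204, DNA sensors of the AIM2 family, differed by 2.17, 0.80 and 0.63, and Dhx58, an RNA sensor, by 0.66. Counts of close paralogs such as these, the Ifitm genes and Ifit3 may be split between copies by the quantification.

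The promoters of Ifit3 and Isg15, both strongly interferon-induced genes, are shown for the letters GAAANNGAA of the interferon-stimulated response element, marked in capitals, with matches on the opposite strand in Ifit3 and overlapping matches in Isg15. They cover 200 bases before the RefSeq start (GRCm38.p6), at chr19:34583329-34583528 on the plus strand and chr4:156200819-156201018 on the minus strand.
Ifit3: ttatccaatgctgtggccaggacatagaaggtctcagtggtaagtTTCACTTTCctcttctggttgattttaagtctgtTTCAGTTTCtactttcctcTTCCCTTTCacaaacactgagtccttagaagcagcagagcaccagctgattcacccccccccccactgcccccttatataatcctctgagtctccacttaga
Isg15: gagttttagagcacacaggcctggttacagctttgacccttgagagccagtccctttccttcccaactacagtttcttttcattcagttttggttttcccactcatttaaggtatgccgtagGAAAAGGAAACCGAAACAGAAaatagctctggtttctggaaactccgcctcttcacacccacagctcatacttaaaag
On both strands GAAANNGAA occurred in 7.13% of all promoters, 7.64% of tested genes with an entry and 23 of the 44 effector genes with an entry (52.3%). Ifit3, whose protein binds other IFIT proteins on foreign RNA, stood at 37.9, 51.9, 43.8, 45.6 and 31 CPM with 27HC, 19.2, 16, 15.9, 15.9 and 15.4 with GW3965, and 293 to 326 with Vehicle, a 2.56-fold difference between the compounds. Isg15, a ubiquitin-like protein, was 23.8 to 33.6 CPM with 27HC, 10.5 to 15.1 with GW3965 and 127 to 149 with Vehicle.

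No chemokine gene was called lower with 27HC than with GW3965. Of 24 tested, 16 were higher with 27HC than with GW3965 (median 0.873) and the other 8 did not pass. GW3965 lowered 19 of the 24 from Vehicle and raised 1, and 27HC lowered 8 and raised 5. Pf4, the chemokine CXCL4, was 665, 668, 739, 670 and 632 CPM with 27HC, 177, 179, 180, 169 and 179 with GW3965, and 296, 306 and 331 with Vehicle. Thus 27HC raised it by 1.12 and GW3965 lowered it (log2 -0.81), a 3.82-fold gap (log2 1.94 ± 0.0424, adjusted p = 1.29e-34). Ppbp, its neighbour on chromosome 5, was 4.95 to 5.82 CPM with 27HC, 0.321 to 0.582 with GW3965 and 1.69 to 2.08 with Vehicle, the largest positive difference among the genes named here (3.66). Pf4 and Ppbp are also platelet genes, and the platelet markers Gp1bb and Itga2b differed by -0.76 and 0.57 at mean levels of about 1 CPM or less and did not pass the test. Ccl6 and Ccl4 differed by 1.88 and 1.37, and Cxcl12, which is also among the stromal markers above, by 0.75. Ccr1, a receptor for several of these ligands, was 19.1 to 25.6 CPM with 27HC, 3.3 to 4.82 with GW3965 and 13.8 to 16.5 with Vehicle.

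Cxcl2, which attracts neutrophils, was 41.7, 46.9, 38.7, 41.3 and 34 CPM with 27HC, 9.31, 7.88, 8.47, 6.24 and 9.28 with GW3965, and 21.3, 23.1 and 29.9 with Vehicle, and the groups did not overlap. The difference was 4.96-fold (log2 2.31 ± 0.133, adjusted p = 1.19e-18). Its promoter (200 bases before the RefSeq start, chr5:90903699-90903898, plus strand, GRCm38.p6) is shown for 2 matches of the NF-kB letters GGNNTTTCC, in capitals.
Cxcl2: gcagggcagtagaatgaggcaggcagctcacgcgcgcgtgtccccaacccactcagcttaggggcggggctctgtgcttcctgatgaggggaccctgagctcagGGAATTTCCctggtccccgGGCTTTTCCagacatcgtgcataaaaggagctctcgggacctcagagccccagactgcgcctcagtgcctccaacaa
On both strands these letters occurred in 4.93% of all promoters, 6.35% of tested genes with an entry and 6 of the 17 chemokine genes with an entry.

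Of 17 inflammatory cytokine genes, 10 were higher and 2 (Csf1 and Tgfb1) lower with 27HC, with a median of 0.536. Il1b, the pyrogenic cytokine, fell with both compounds: it was 28.5, 35.5, 26.1, 28.6 and 20.2 CPM with 27HC, 4.34, 4.62, 6.67, 3.6 and 5.93 with GW3965, and 139, 153 and 205 with Vehicle. The 2 compounds were 5.59-fold apart (log2 2.48 ± 0.222, adjusted p = 2.59e-12). Il1rn, the antagonist of the same receptor, was 55.4 to 71.2 CPM with 27HC, 11.7 to 16.6 with GW3965 and 41.2 to 51.2 with Vehicle, so that 27HC lay above Vehicle and GW3965 below. Csf1, the macrophage growth factor, was lower with 27HC (log2 -0.53), and Tnfsf9, a co-stimulatory ligand, higher by 1.27.

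Among 23 Toll-like receptors and adaptors 13 were higher and 2 lower with 27HC than with GW3965, with a median of 0.216. Against Vehicle, 27HC raised 4 and lowered 14 of them, and GW3965 raised 4 and lowered 16. Cd14, the lipopolysaccharide co-receptor, was 1106, 1132, 1150, 1116 and 1076 CPM with 27HC, 274, 271, 279, 264 and 267 with GW3965, and 1287, 1348 and 1470 with Vehicle. It lay below every Vehicle library with both compounds, by a little with 27HC (log2 -0.30) and far with GW3965 (log2 -2.34). The compounds were 4.12-fold apart (adjusted p = 2.93e-35). Tlr7, Tlr1 and Irak3 were higher by 1.07, 0.70 and 0.70. Lbp, which hands lipopolysaccharide to Cd14, went the other way: it was 0.304 to 1.31 CPM with 27HC, 2.17 to 3.69 with GW3965 and 0.162 to 0.733 with Vehicle (log2 -2.10). The chaperone Unc93b1 was lower (log2 -0.12).

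Of 18 NF-kB subunits and feedback genes 9 were higher with 27HC than with GW3965 and 1, Ikbkg (-0.40), lower, with a median of 0.13. Against Vehicle, 27HC raised 3 and lowered 10 of them, and GW3965 raised 3 and lowered 12. Traf1, Nfkbie, Nfkb2 and Bcl3 were higher by 1.22, 0.46, 0.26 and 0.49, and Rela and Rel, which encode subunits that activate transcription, did not pass. Of 9 acute phase and granule genes 5 were higher and 2 (S100a4 and S100a6) lower, with a median of 0.597, and 3 were higher without GW3965 replicate 4. Saa3, a serum amyloid protein, was 210, 315, 240, 200 and 145 CPM with 27HC, 24.9, 27.5, 38.6, 19.5 and 32.8 with GW3965, and 302, 399 and 464 with Vehicle, 7.81-fold apart (log2 2.96 ± 0.178, adjusted p = 2.83e-17). Lcn2, which binds bacterial siderophores, was 2.41 to 6.64 CPM with 27HC, 0.214 to 0.801 with GW3965 and 7.19 to 12.7 with Vehicle. Slpi, a protease inhibitor, was higher by 1.65. The summed neutrophil markers, which include Mmp8, stood at 47.7 to 57.2 CPM with 27HC, 31.4 to 37.5 with GW3965 and 73.1 to 90.3 with Vehicle. Their part in these differences was not tested, and Mpo, Elane and Ly6g were near 0 as given above.

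**Figure D4:**
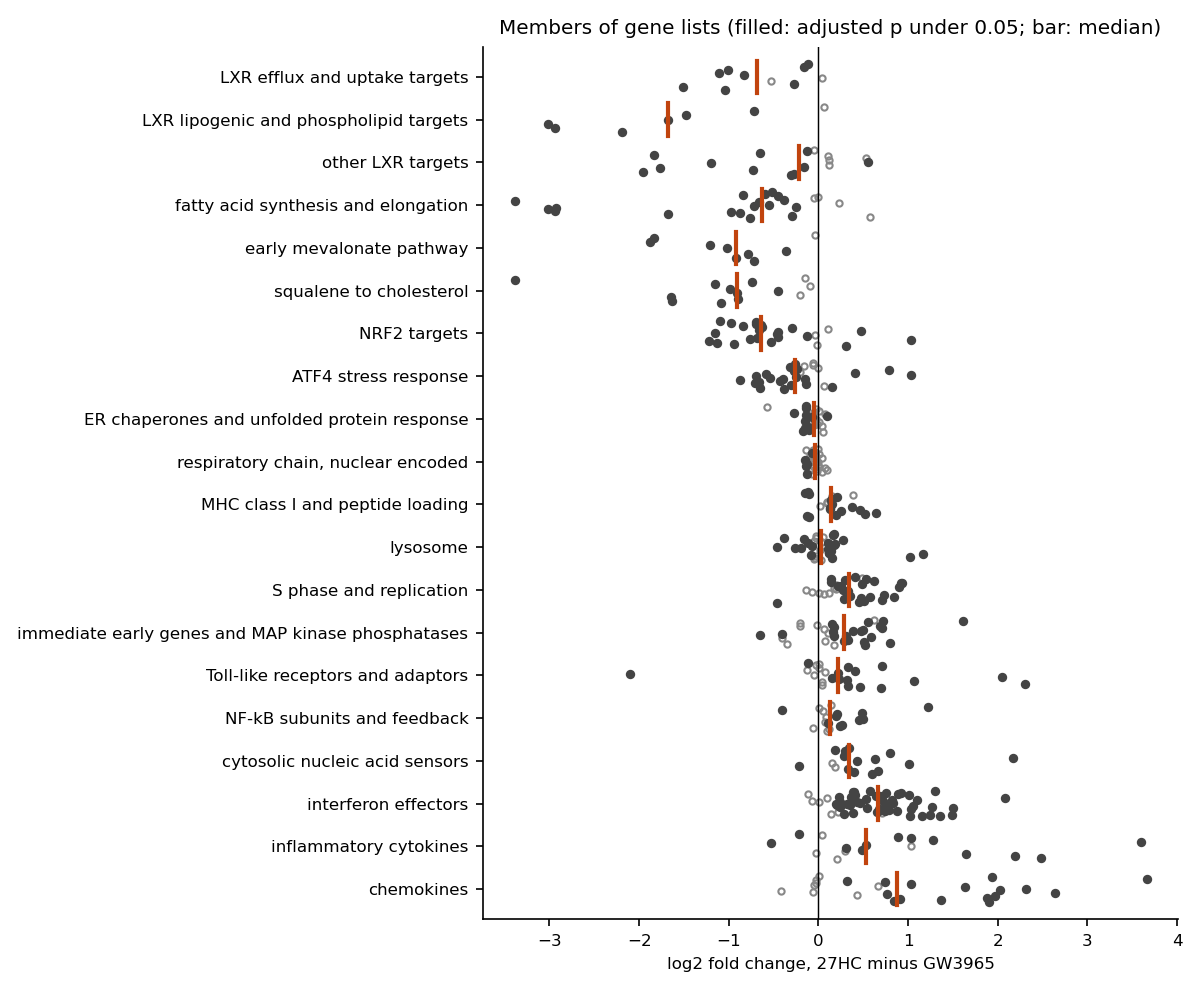
Log2 difference of 27HC minus GW3965 (x axis) for every tested member of the gene lists shown (y axis), with filled points for members that passed the test and a bar at each list's median. Interferon effectors have a median of 0.662 and chemokines of 0.873, and the lipogenic targets of LXR have -1.679.

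Most genes of oxidant defence were higher with GW3965 than with 27HC. Of 26 tested targets of NRF2, the transcription factor of the antioxidant response, 20 were lower with 27HC than with GW3965 and 3 (Slc7a11, Nfe2l2 and Sod2) higher, with a median of -0.638. GW3965 raised 20 of them from Vehicle and lowered 5, and 27HC raised 11 and lowered 5. Cat, the catalase gene, was 435, 412, 424, 423 and 431 CPM with 27HC, 937, 935, 948, 969 and 949 with GW3965, and 376, 384 and 392 with Vehicle. The 2 compounds were 2.23-fold apart (log2 -1.16 ± 0.0216, adjusted p = 2.65e-37), and 27HC stood 0.14 above Vehicle. Gclm, a subunit of the enzyme that starts glutathione synthesis, was 293, 303, 303, 300 and 312 CPM with 27HC, 709, 729, 668, 714 and 712 with GW3965, and 280, 286 and 317 with Vehicle. The 27HC libraries lay within the Vehicle range, and GW3965 was 2.34-fold above 27HC (log2 -1.22 ± 0.0312, adjusted p = 4.67e-32). Hmox1, heme oxygenase, rose with both, to 959 to 1000 CPM with 27HC and 1822 to 1981 with GW3965 from 640 to 716 with Vehicle. Slc40a1, the iron exporter, was 313 to 330 and 666 to 695 CPM against 331 to 354. Slc7a11, the cystine transporter, went the other way: it was 40.6 to 49.2 CPM with 27HC, 19.9 to 22.6 with GW3965 and 31.6 to 45.3 with Vehicle.

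The promoter of Gclm is shown because a letter match of the antioxidant response element, TGACNNNGC, lies 134 bases before the RefSeq start on the opposite strand. Both it and a CCAAT box match are in capitals in the 240 bases at chr3:122245317-122245556 (plus strand, GRCm38.p6).
Gclm: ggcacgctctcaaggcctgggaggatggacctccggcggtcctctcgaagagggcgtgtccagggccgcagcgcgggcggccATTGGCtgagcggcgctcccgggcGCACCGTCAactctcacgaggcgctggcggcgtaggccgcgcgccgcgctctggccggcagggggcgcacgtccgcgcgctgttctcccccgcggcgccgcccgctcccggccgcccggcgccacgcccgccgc
On both strands TGACNNNGC occurred in 10.16% of all promoters, 13.86% of tested genes with an entry and 6 of the 22 NRF2 targets with an entry. It also occurred in 4 of 13 cytosolic nucleic acid sensors and 6 of 23 lysosome genes, and in 0 of 15 arachidonate and arginine enzymes.

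The ATF4 stress response, which raises amino acid synthesis and transport, had 18 of 28 genes lower with 27HC than with GW3965 and 4 higher (Slc3a2, Slc7a11, Cebpb and Ddit3), with a median of -0.259. Ddit3 was just past the threshold (adjusted p = 0.0403), and leaving out any of several single libraries ended its call. Against Vehicle, 27HC raised 15 and lowered 4, and GW3965 raised 21 and lowered 6. Mthfd2, an enzyme of mitochondrial folate metabolism, differed by -0.54, Atf4 by -0.39 and Atf3 by -0.66. Of 24 chaperones and unfolded protein response genes 10 were lower with 27HC than with GW3965 and 1, Xbp1 (0.10), higher, with a median of -0.053. Both compounds raised most of this list from Vehicle, 27HC 20 and GW3965 22 of the 24, and lowered 0. Pdia3, Canx, Hsp90b1 and Calr, chaperones of the endoplasmic reticulum, differed by -0.12, -0.15, -0.17 and -0.10.

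Replication genes were higher with 27HC. Of 34 S phase genes 24 were higher and 1, Pcna, lower than with GW3965, with a median of 0.342. 27HC raised 27 of them from Vehicle, and GW3965 raised 7 and lowered 3. Mcm5, a subunit of the replicative helicase, was 44.3, 37.5, 42.7, 41.1 and 46.1 CPM with 27HC, 26.4, 26.1, 25.2, 25.8 and 26.3 with GW3965, and 21.1, 22.6 and 23.8 with Vehicle. It was 1.63-fold higher with 27HC (log2 0.71 ± 0.0574, adjusted p = 5.43e-14). Uhrf1, which maintains DNA methylation, was 17.5 to 24 CPM with 27HC, and 10.3 to 11.9 with GW3965, inside the Vehicle range of 8.43 to 13.4. Pcna, the sliding clamp of DNA polymerase, rose with both compounds and further with GW3965, at 280 to 315, 393 to 415 and 150 to 175 CPM with 27HC, GW3965 and Vehicle. Of 28 genes of G2 and mitosis 7 were higher with 27HC and the other 21 did not pass, with a median of 0.261. Cdk1, the mitotic kinase, and Top2a, a topoisomerase, were each higher by 0.61.

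Of 32 immediate early genes and MAP kinase phosphatases 19 were higher with 27HC and 2 (Atf3 and Klf2) lower, with a median of 0.29. Nr4a1, an orphan nuclear receptor, was 7.01, 7.67, 7.34, 7.76 and 7.78 CPM with 27HC and 2.86, 2.5, 2.05, 2.6 and 2.21 with GW3965. Its Vehicle range, 6.44 to 8.06 CPM, held all 27HC libraries, and the compounds were 3.06-fold apart (log2 1.61 ± 0.102, adjusted p = 1.32e-17). Jun, Fosl2 and Dusp1 were higher with 27HC by 0.51, 0.80 and 0.47. Of 19 genes known as estrogen-responsive 7 were higher and 3 (Igf1, Krt19 and Hspb8) lower with 27HC, with a median of -0.013, and Ccnd1, cyclin D1, was higher by 0.55. In these macrophages E2 alone raised only 3 of the 19 from Vehicle and lowered 2 (2.2% and 2.49% of all genes). Against Vehicle, 27HC raised 9 and lowered 5 of them, and GW3965 raised 12 and lowered 6. Whether the differences involve estrogen receptors was not tested.

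Of 23 genes of MHC class I and peptide loading, 12 were higher and 5 (Pdia3, Canx, Calr, H2-D1 and H2-K1) lower with 27HC, with a median of 0.143, while 27HC lowered 19 and GW3965 20 of them from Vehicle, with medians of -0.76 and -0.887. H2-T23, a nonclassical class I gene, and the peptide transporter Tap1 were higher with 27HC by 0.46 and 0.38. H2-Q7 was higher by 0.64, with counts that near-identical H2-Q genes may share. Of 15 class II and co-stimulation genes 5 were higher and 4 (Tnfsf4, Cd74, H2-Aa and H2-Ab1) lower. The call of H2-Ab1 was lost when 27HC replicate 2 or 5 or GW3965 replicate 1, 2, 3 or 5 was left out (adjusted p = 0.0538 to 0.156), and that of H2-K1 without 27HC replicate 5 or GW3965 replicate 1 or 5 (adjusted p = 0.052 to 0.102). Cd86, the ligand of CD28 and CTLA-4, was higher by 0.92. Of 21 checkpoint ligands and T cell-inhibiting genes 10 were higher and 4 (Tgfb1, Cd47, Cd274 and Lair1) lower, with a median of 0.276. Siglec1, a sialic acid receptor that interferon induces, was higher by 1.29, and Cd274, which encodes PD-L1, lower (log2 -0.36) at 40.7 ± 5.03 CPM (SD, n = 5) against 52.4 ± 2.

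Surface and secreted macrophage proteins changed in both directions. Of 15 scavenger receptors 5 were higher and 5 (Scarb1, Clec7a, Scarb2, Cd36 and Stab2) lower with 27HC, with Mrc1, the mannose receptor, at 0.88 and Clec7a, a beta-glucan receptor, at -0.75. The call of Stab2 was lost without 27HC replicate 3, 4 or 5 or GW3965 replicate 2 or 3 (adjusted p = 0.0531 to 0.0852). Of 27 genes of efferocytosis and complement 8 were higher and 8 lower. Mertk, a receptor for dying cells and an LXR target, was 90.1 ± 3.85 CPM with 27HC and 149 ± 5.72 with GW3965 (log2 -0.73), and Cfb, complement factor B, was higher with 27HC by 1.52. Of 22 matrix protease and plasminogen genes 12 were higher and 4, among them Timp3, Ctsk and Serpinb2, lower, with a median of 0.275. Adam8, Mmp13, Mmp8 and Mmp9, proteases that cut matrix and cell-surface proteins, were higher by 0.69, 1.63, 1.75 and 1.56, beside the osteoclast marker sums given above, which include Mmp9, and the neutrophil marker sums, which include Mmp8. Ctsl, a lysosomal protease, was 1627 to 1744 CPM with 27HC, 729 to 785 with GW3965 and 1398 to 1532 with Vehicle. Of 32 lysosome genes 14 were higher and 8 lower, with a median of 0.033.

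Of 23 glycolysis genes 3 were higher and 4 lower with 27HC, near the shares of all genes (12.8% and 12.5%), with a median of -0.01. Of 13 mitochondrially encoded genes 5 were lower, with a median of -0.278, beside the difference in their share of all counts given above. Of 21 PPAR targets and lipid droplet genes 9 were lower and 3 (Hilpda, Ppard and Acadvl) higher, and Plin2, which coats lipid droplets, differed by -0.32. The call of Acadvl was lost without 27HC replicate 2, 3 or 5 or GW3965 replicate 4 (adjusted p = 0.0571 to 0.119).

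Some genes responded almost alike to the 2 ligands. Plau, the urokinase gene, was 212 to 254 CPM with 27HC and 195 to 208 with GW3965, against 57.2 to 72.8 with Vehicle. Cd36, a fatty acid and scavenger receptor, was 3151 to 3382, 3640 to 3876 and 1260 to 1448 CPM in the same order. Their differences between the compounds passed the test but were 0.23 and -0.20. Dusp4, Chst3 and Hmga2 rose from Vehicle by 1.66, 1.38 and 1.23 with 27HC and by 1.60, 1.37 and 1.22 with GW3965, and they did not pass between the compounds. Among genes that fell with both, H2-Q4 and Clec4a3 differed between the compounds by 0.20 and 0.16, and Ddx60, Ogn and Gpr162 by 0.15, 0.04 and 0.03 without passing. The 95% interval of the difference lay within 0.32 either way for these 10 genes, which was part of how they were chosen.

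For other genes at least 2-fold apart between the compounds, the 95% interval of one ligand against Vehicle lay within 0.32 either way, which again chose them. Stard4, Srebf2 and Mvd were lower with 27HC, with GW3965 at 0.02, -0.02 and 0.06 from Vehicle. Srebf1, Cd5l, Gsta3, Gclm and Cat were higher with GW3965, with 27HC at 0.19, 0.18, -0.07, 0.05 and 0.14. Nr4a1, Ets2, Ctsl, Nxpe5 and Trib1 were lower with GW3965, at -1.52, -1.24, -0.93, -0.88 and -1.29 from Vehicle, with 27HC at 0.09, 0.20, 0.24, 0.19 and -0.25.

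**Figure D5:**
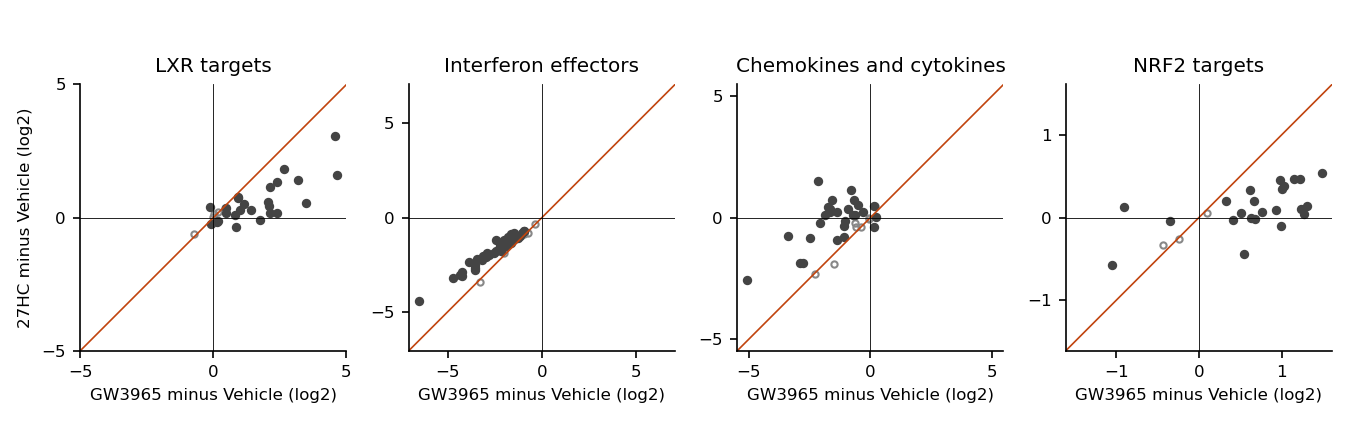
Log2 difference from Vehicle with GW3965 (x axis) and 27HC (y axis) in 4 panels: LXR targets, interferon effectors, chemokines with cytokines, and NRF2 targets. Points are genes with a mean of at least 1 CPM in 1 of the 3 groups, filled where 27HC and GW3965 differed. The line marks equal change, and both axes use the same 6 Vehicle libraries. Over all 56 tested interferon effectors, plotted or not, the medians were -1.342 with 27HC and -2.013 with GW3965.

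The LXR antagonist alone raised 2542 genes (18.4%) and lowered 2483 (17.9%) from Vehicle. It lowered 8 of the 10 efflux and uptake targets, with Abca1 at -2.46 and Abcg1 at -4.94. It also lowered cholesterol synthesis genes, 8 of 9 and 11 of 13, with Idi1 at -2.16 and Sqle at -1.60. It raised 45 of the 56 interferon effectors and lowered 3. Rises from Vehicle in the NRF2 and ATF4 lists were not particular to GW3965: GSK2033 raised 16 and lowered 4 of the 26 NRF2 targets. It raised 23 of the 28 ATF4 genes and lowered 0. Of the 1765 genes higher with 27HC than with GW3965, 573 rose with GSK2033 (32.5% of the former, 22.5% of the latter) and 485 fell (27.5% and 19.5%). Of the 1735 genes lower with 27HC, 320 rose (18.4% and 12.6%) and 619 fell (35.7% and 24.9%). Across all 13838 genes the 2 sets of log2 differences had a Pearson r of 0.067 and a Spearman rho of 0.069, where genes are not independent replicates.

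Estradiol alone raised 305 genes (2.2%) and lowered 345 (2.49%). It lowered 50 of the 56 interferon effectors, with Irf7 at -0.55 and Isg15 at -0.60, and Abca1 stood at 0.13 and did not pass the test. Of the 26 NRF2 targets it raised 13 and lowered 1. Of the genes higher with 27HC than with GW3965, 230 fell with E2 (13% of the former, 66.7% of the latter) and 82 rose (4.65% and 26.9%). Of the genes lower with 27HC, 135 rose with E2 (7.78% and 44.3%) and 23 fell (1.33% and 6.67%). The correlation across genes was -0.095 (Pearson) and -0.128 (Spearman).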

How the data were processed

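RNA of bone marrow-derived macrophages was extracted with RNeasy Plus columns, per the labels' protocols. Polyadenylated RNA was sequenced from stranded TruSeq libraries as single reads on a NovaSeq. The 46 libraries were pooled on the same lanes. The submitters' processing notes name bcl2fastq 2.20, kallisto 0.44.0 and GRCm38, and the authors deposited estimated counts per Ensembl gene. How transcripts were summed to genes, and whether strand was used in counting, is not given in the sources used here. Annotation matched symbols for 24243 of 24671 genes, and the other 428 held 0.483% of the counts.

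Estimated counts were rounded, and no library total moved by over 133 counts. edgeR 4.0.16 (R 4.3.3) fitted its robust quasi-likelihood model to all 46 libraries, with 1 mean for each of 9 groups, TMM scaling and the filterByExpr filter, which left 13838 genes and 37 residual degrees of freedom. The common dispersion was 0.00571, a coefficient of variation of 7.55%. Contrasts were adjusted by Benjamini-Hochberg over all genes with a threshold of 0.05. Intervals are 95% with the t quantile at 37 degrees of freedom. In 5 libraries the labels disagree on the compound given with GW3965, and they enter only the shared spread. Replicates of both ligands differed by 4.82 to 10.3 chi-square per degree of freedom over 20 pairs, where counting error alone gives about 1. The scripts were tested on simulated data.

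The comparison, gene lists and rules were chosen with earlier results of these data known. The rule names the receptors and LXR and sterol genes, in each list the members with the smallest p (at most 4) and those called against its majority (at most 5). It adds the extremes among called genes, the called genes of highest level with at least a 2-fold difference, genes that both ligands changed alike and genes that 1 ligand left near Vehicle. Some genes it takes are not reported here, and others named here were chosen after their values were seen. Promoters are RefSeq sequences of GRCm38.p6, searched on both strands over the 250 bases before the start. Alternatives covered scaling with total counts or with the relative log expression factors of edgeR, filters, DESeq2 1.42.0 and limma-voom (limma 3.58.1). They also covered the samples in the fit, a replicate block, mitochondrial genes, rounding and each replicate left out.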

Additional observations from a re-analysis of the deposited data

Results flagged for a closer look

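In 35 of 591 groups of 5 or 6 libraries (5.92%), 1 library lay apart from the others of its group by Dixon's 95% criterion, and chance alone gives about 1 in 20. The values are given in CPM with the range of the other libraries.

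Among the 27HC libraries, replicate 2 stood apart in Cebpa (241, others 261 to 266), Hpgd (8.14, others 11 to 11.8), Msmo1 (46.6, others 50.2 to 51.3), Nlrp3 (77.2, others 69.3 to 71.1), Slc7a11 (49.2, others 40.6 to 42.6), Socs3 (31, others 23.4 to 25.5) and Timp3 (189, others 159 to 166). It also had 0 for Gp1bb, where the others had 0.756 to 0.927. Replicate 3 stood apart in Fosl2 (111, others 124 to 126), Klf2 (13.6, others 14.7 to 14.9) and Slc40a1 (330, others 313 to 316). Replicate 4 was highest in Lbr (26.7, others 22.8 to 23.7). Replicate 5 stood apart in Gpr162 (17.1, others 19.5 to 19.9), Tnfsf4 (0.37, others 0.13 to 0.169) and Unc93b1 (621, others 649 to 659).

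Among the GW3965 libraries, replicate 1 stood apart in Apoe (9270, others 7880 to 8170), Ifit3 (19.2, others 15.4 to 16), Lpl (7980, others 7530 to 7620), Rxra (122, others 129 to 132) and Spi1 (407, others 386 to 387). Replicate 4 was lowest in Gsta3 (11.6, others 13.7 to 14.3), H2-K1 (1460, others 1570 to 1620), Pf4 (169, others 177 to 180) and Xbp1 (187, others 191 to 192). Replicate 5 was highest in Nr1h3 (51.1, others 39.6 to 42.5).

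Among the Vehicle libraries, replicate 6 was highest in Adam8 (1360, others 1280 to 1310), Ctsl (1530, others 1400 to 1450), Hmga2 (20.1, others 14.7 to 16.7), Mmp12 (205, others 165 to 175) and Tlr1 (81.6, others 73.8 to 76.3). Replicate 4 was highest in Cd5l (124, others 94 to 104) and S100a6 (259, others 231 to 240), replicate 5 in Acadvl (84.7, others 78 to 80.2) and Scarb2 (304, others 276 to 286), and replicate 3 in Xbp1 (158, others 149 to 152).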

How the results depend on the processing

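Under 21 alternatives for 27HC minus GW3965, genes called stayed within 1.5 times the reported counts (1765 higher, 1735 lower). No gene called both as reported and under an alternative changed direction. Leaving out 1 library at a time gave 1676 to 1824 higher and 1448 to 1700 lower, and for at least 2-fold differences 186 to 203 higher and 100 to 120 lower. Total counts only as the scaling gave 2173 higher and 1398 lower and moved the median of all genes to 0.0246. Of 164 called genes named here, 158 kept their call under all alternatives run for them, and Acadvl, Ddit3, H2-Ab1, H2-K1, Osbpl3 and Stab2 lost it under at least 1. Their highest adjusted p-values were 0.125, 0.123, 0.156, 0.102, 0.0683 and 0.0852, and for each of them 1 or more of those alternatives left out a single library of 27HC or GW3965. Ddx60, Lbr, Mx2, Nr1h3 and Oas2 passed under 1 or more, with lowest adjusted p-values of 0.0253, 0.0235, 0.0136, 0.0153 and 0.00918. Acute phase and granule genes had 3 called higher when only both groups compared were fitted and 3 to 5 when 1 library was left out. The cause was not tested. The list of mitochondrially encoded genes had 0 called lower where those genes were left out of the library size, since they were then not tested. With the replicate number from the titles as a block, 3728 genes were called (1865 higher, 1863 lower), of which 3464 are among the reported ones. Same-numbered 27HC and GW3965 libraries correlated at -0.017 to 0.078 in their deviations from the group means, and 1 of 5 correlated best with its own number, so the numbers were not taken as pairs. Replicate 5 had the highest share of mitochondrially encoded counts in 7 of 9 groups, and whether the numbers mark a shared batch cannot be told from the labels used here. Alternatives for GSK2033 and E2 minus Vehicle were chosen after seeing the data, and their counts stayed within 1.5 times.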

Other observations

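Of 18 enzymes of arachidonate and arginine metabolism 8 were higher with 27HC than with GW3965 and 3 lower (12.8% and 12.5% of all genes), with a median of 0.161. Ptges, which makes prostaglandin E2, was 22.9 CPM with 27HC, 7.82 with GW3965 and 27.7 with Vehicle (means), a log2 difference of 1.55. Acod1, which makes itaconate, differed by 1.39, and Hpgd, which inactivates prostaglandins, by -0.60. Of 16 genes of alternative activation 7 were higher, with Tgm2, a transglutaminase, at 0.70, F13a1, coagulation factor XIII, at 1.49 and Socs3, a feedback inhibitor of cytokine signalling, at 1.14, and the other 9 did not pass.

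Of 18 genes of lipid-associated macrophages 6 were higher and 7 lower with 27HC, and 27HC raised 17 and GW3965 14 of them from Vehicle. Spp1, osteopontin, was 1489 CPM with 27HC, 830 with GW3965 and 922 with Vehicle, whereas Mmp12, a macrophage elastase, was 612, 396 and 175, and Trem2, a lipid-sensing receptor, 284, 377 and 220. Of 15 inflammasome genes 6 were higher, with Nlrp3 at 0.76 and Casp4 at 0.56, and 4 were lower, all of them Naip genes whose counts may be split between near-identical copies. Of 19 hypoxia-responsive genes 5 were higher and 5 lower, with Hif1a at 0.51, Vegfa at 0.47 and Ndrg1 at -0.63.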
